A study of Arabidopsis thaliana with 24 samples.

Results

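In control leaves of Arabidopsis thaliana, 18 of the 20777 loci on the array had their lowest transcript level in the expanding leaf, with a marked gap to both neighbouring stages. A locus was kept if its mean over the 3 control arrays was at least 1.2 log2 units higher in the proliferating leaf than in the expanding leaf, and also at least 1.2 higher in the mature leaf. A log2 difference of 1 is a 2-fold difference. The rule used the 9 control leaf arrays, so the dip in control leaves is how these loci were chosen and is described without a test. Tests compared only groups of arrays the rule did not use, which are the 9 mannitol leaf arrays and the 6 seedling arrays. The SE and p of these tests rest on the spread within groups over all 24 arrays, the 9 control leaf arrays included.

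The study profiled wild-type plants of the Col-0 accession on 24 Affymetrix ATH1 arrays. The culture medium held 25 mM mannitol or, for controls, 0 mM; mannitol is a sugar alcohol used to make water harder for roots to take up. Each of the 8 groups has 3 arrays: seedlings (vegetative part, growth stage 1.03) on mannitol and on control medium, and the third true leaf on mannitol and on control medium at day 9 (proliferating, area about 0.1 mm2), day 15 (expanding, 7 mm2) and day 22 (mature, 40 mm2). The labels give no age for the seedlings, and the leaf areas are the same for both media. Since a protocol text in the labels speaks of mannitol for control samples as well, groups were taken from the titles. Each sample pooled many plants from 1 of 3 independent experiments.

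A young leaf first grows by cell division, then by cell expansion, and then stops growing while its photosynthesis and storage metabolism settle. Abscisic acid is the main hormone of water deficit: its receptors inhibit protein phosphatases that otherwise hold back a set of kinases, and several of the genes it induces encode those same phosphatases and other brakes on the signal. Genes for the breakdown of stored sugars and proline are generally more active when carbon is scarce, and proline dehydrogenase is known to fall during osmotic stress and to rise when the stress ends.

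By their known roles, HAI1, RPK1 and AFP1 belong to abscisic acid signalling, SIP2, A/N-InvC and ERD5 to sugar and proline breakdown, and XBAT31, RMA1 and Fes1A to protein turnover and folding, beside MKK9, NPC3, BT5 and TI1. These roles are background and were not tested for enrichment; only 3 of the loci (HAI1, SIP2 and ERD5) are on a pathway list used here. The other 5 (AT2G28400, AT4G23680, AT1G15010, AT1G23710 and AT1G32690) carry only a locus code in the annotation used here, and no role is given for them. AFP1 and RPK1 are direct neighbours on chromosome 1, with 0 annotated genes between them. None of the group means of any of the 18 loci lay below the lower quartile of all values on the arrays, which was 4.04, so all 18 passed the filter on low values.

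Arrays had medians between 5.91 and 6.16, and arrays of 1 group correlated with r between 0.990 and 0.997. The labelled leaf stages were checked against 9 lists of cell type markers. The 7 measured markers of dividing cells summed to between 63.7 and 64.5 in proliferating control leaf, between 38.5 and 38.9 in expanding control leaf and between 31.8 and 32.4 in mature control leaf, and none (0) of the 7 was lowest in the expanding leaf. None of the 9 lists had both median differences at 1.2 or more in control leaves. Of the 10 shoot meristem markers 5 were lowest in expanding leaf, where 19.97% of all loci were, with a median of 0.09 for proliferating minus expanding and 0.13 for mature minus expanding, and so were 1 of the 11 root markers, 1 of the 8 trichome markers and 0 markers of the other lists. Many of the meristem markers were near the low end of the arrays, so their lowest stage is hard to read. Their control means lay below the lower quartile for 4 in proliferating, 5 in expanding and 5 in mature leaf. Pooled leaves were sampled, so fewer cells with a transcript and less transcript per cell cannot be told apart.

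In control leaves, proliferating minus expanding ran from 1.305 to 4.01 over the 18 loci (median 1.65) and mature minus expanding from 1.21 to 3.99 (median 1.60), as the rule requires. The medians over all loci were -0.04 and 0.01. The dip was deepest, by the smaller of the 2 differences, for HAI1 (2.35), RPK1 (2.07) and SIP2 (1.93). Just inside the threshold lay AT1G15010 (1.28), AT1G23710 (1.24) and AT1G32690 (1.21), and just outside it AT2G22080 (1.18), AT5G52450 (1.18) and AT1G30820 (1.17). The mature leaf was above the proliferating leaf for 8 of the loci and below it for 10. The expanding control arrays lay wholly below the proliferating ones for all 18 (31.7% of all loci) and below the mature ones for 17 (20.8%). The exception was TI1, whose 3 mature control arrays were far apart.

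**Figure D1:**
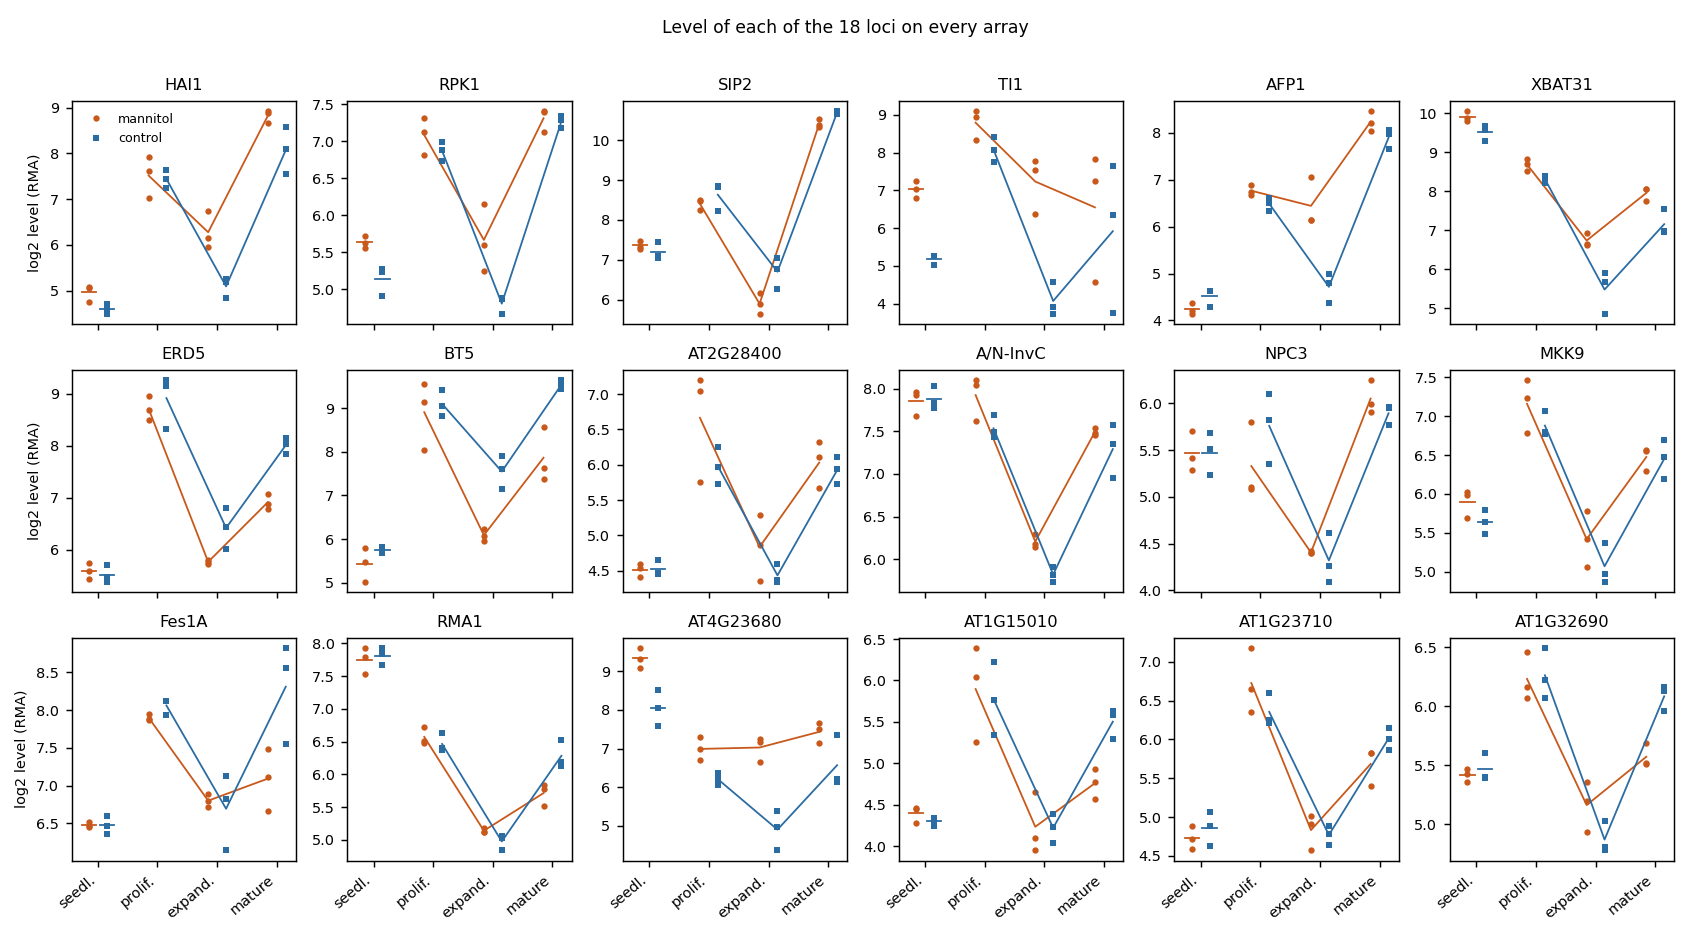
Log2 level (RMA, vertical axis, scaled per locus) of each of the 18 loci on every array, by stage; circles are mannitol arrays and squares control arrays, 3 each, and lines join the leaf means while short bars mark the seedling means. Control leaves dip at the expanding stage by construction. Under mannitol a dip of some size, with the lowest leaf mean at the expanding stage, stays for 16 of the 18 loci (16.48% of all loci). It is missing for AT4G23680, where the 3 leaf means lie between 6.99 and 7.43, and for TI1, whose mature mean (6.55) lies below its expanding mean (7.23).

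Under mannitol most of the loci kept a dip, counted here as a called difference of any size. By the rule's own threshold of 1.2 on both sides, 6 of the 18 kept it. From proliferating to expanding leaf 15 of the 18 fell and 0 rose, where 31.8% of all loci fell and 33.2% rose (limma, Benjamini-Hochberg adjusted p from 6.39e-12 to 0.000357 among the 15). The median difference was -1.61 for the 18 loci and 0.08 for all loci. From expanding to mature leaf 14 rose and 0 fell, where 18.6% of all loci rose and 21.5% fell, with a median difference of 1.17 for the 18 and -0.04 for all loci. Both changes held for 13 loci, against 3.48% of all loci. The expanding mannitol arrays lay wholly below the proliferating ones for 16 of the 18 (32.9% of all loci) and wholly below the mature ones for 14 (22.5%).

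The pattern was partial or missing for 5 loci. Fes1A and AT1G15010 fell into the expanding leaf but their later difference did not pass (adjusted p 0.376 and 0.0693). AFP1 did not pass the first step (0.146) and rose at the second. TI1 and AT4G23680 passed neither step. With each array set to a common median, the median of all loci for the first step moved to 0.21 and calls over all loci became 45.8% higher and 27.6% lower, against 33.2% and 31.8% as deposited, and the count for the 18 loci was still 15 lower and 0 higher.

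**Figure D2:**
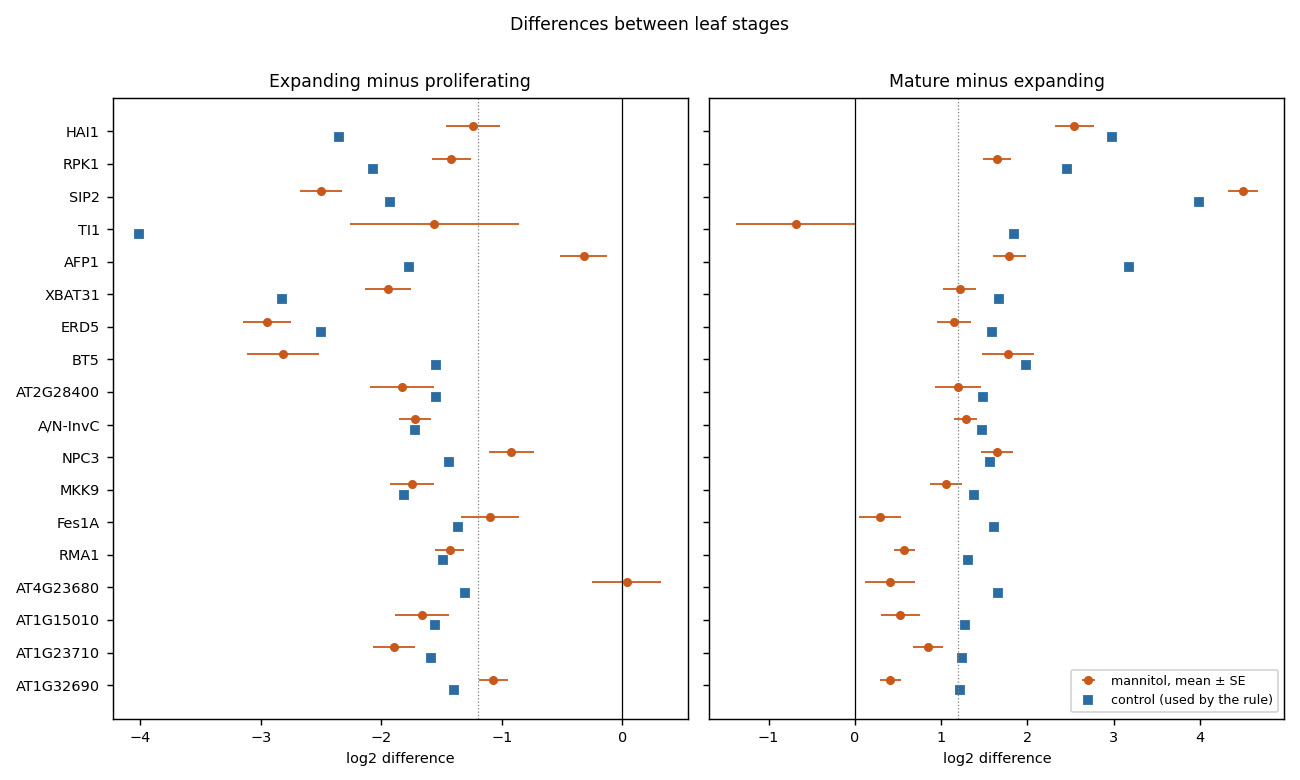
Log2 difference between leaf stages for each locus (rows): expanding minus proliferating on the left and mature minus expanding on the right. Circles are mannitol leaves with the SE from the fit, squares are control leaves, which the rule used, and dotted lines mark its threshold of 1.2. All mannitol circles except AT4G23680 lie left of 0 in the left panel, and all except TI1 lie right of 0 in the right panel.

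HAI1 encodes a protein phosphatase of the group that the abscisic acid receptors inhibit, and is itself induced by the hormone. Under mannitol its log2 levels were 7.03, 7.61 and 7.92 in proliferating leaf, 6.73, 5.95 and 6.15 in expanding leaf, and 8.67, 8.88 and 8.92 in mature leaf. It fell by 1.24 ± 0.23 (SE, n = 3 arrays each, adjusted p 4.59e-05) and then rose by 2.55 ± 0.23 (5.69e-09), a 5.84-fold rise. The 3 stages did not overlap, and the mature arrays were the highest. In control leaves the levels were 7.25, 7.43 and 7.64, then 5.18, 5.26 and 4.84, then 7.54, 8.58 and 8.09.

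RPK1, a receptor-like kinase with leucine-rich repeats that takes part in abscisic acid signalling, had 6.82, 7.12 and 7.32 in proliferating, 6.16, 5.25 and 5.59 in expanding and 7.13, 7.40 and 7.40 in mature leaf on mannitol. It fell by 1.42 ± 0.16 (adjusted p 6.74e-08) and rose by 1.64 ± 0.16 (2.93e-08). Control levels were 6.89, 6.73 and 6.99, then 4.67, 4.86 and 4.89, then 7.29, 7.35 and 7.18. All expanding arrays lay below the other stages in both media. The mature and proliferating arrays overlapped on mannitol, whereas in control leaves the mature ones lay wholly above.

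AFP1, its neighbour in the genome, encodes a protein that binds a transcription factor of the abscisic acid response and dampens the signal. Its mannitol levels were 6.67, 6.75 and 6.88 in proliferating, 7.05, 6.14 and 6.14 in expanding and 8.04, 8.46 and 8.21 in mature leaf. The first difference was -0.32 ± 0.19 (adjusted p 0.146) and the rise to the mature leaf 1.79 ± 0.19 (9.21e-08, 3.46-fold). The first expanding mannitol array was higher than the others for AFP1, HAI1 and RPK1. This was not particular to them, since it was also the highest for SIP2, TI1, XBAT31, ERD5 and MKK9, among others. It was not the highest for BT5, A/N-InvC, NPC3 and RMA1. Without that array AFP1 passed the first step too (adjusted p 0.00216). Control levels were 6.62, 6.33 and 6.51, then 4.37, 4.99 and 4.79, then 8.07, 7.97 and 7.65, with no overlap between stages.

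SIP2, an enzyme that splits raffinose, showed the largest rise to the mature leaf of the 18 loci under mannitol. Its levels were 8.25, 8.47 and 8.50 in proliferating, 6.17, 5.65 and 5.89 in expanding and 10.53, 10.32 and 10.37 in mature leaf on mannitol. It fell by 2.502 ± 0.17 (adjusted p 1.38e-11) and rose by 4.51 ± 0.17 (1.3e-14), which is a 22.7-fold rise. Control levels were 8.84, 8.84 and 8.22, then 7.05, 6.27 and 6.78, then 10.70, 10.65 and 10.72. The mature arrays were the highest in both media and the stages did not overlap.

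A/N-InvC, a neutral invertase that splits sucrose into glucose and fructose, varied little between replicates. It had 7.62, 8.11 and 8.05 in proliferating, 6.18, 6.14 and 6.30 in expanding and 7.48, 7.54 and 7.46 in mature leaf on mannitol. It fell by 1.72 ± 0.14 (adjusted p 1.26e-10) and rose by 1.29 ± 0.14 (7.06e-08). The expanding arrays lay more than 1 log2 unit below every array of the other stages. Control levels were 7.49, 7.43 and 7.69, then 5.91, 5.82 and 5.73, then 7.36, 7.57 and 6.95.

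ERD5 is proline dehydrogenase, which carries out the first step of proline breakdown. On mannitol it had 8.96, 8.68 and 8.50 in proliferating, 5.81, 5.73 and 5.76 in expanding and 7.08, 6.88 and 6.78 in mature leaf. The fall of 2.95 ± 0.20 (adjusted p 6.39e-12, 7.72-fold) was the largest of the 18 loci at this step, and it rose by 1.15 ± 0.20 (4.53e-05) to the mature leaf. The mature leaf stayed below the proliferating leaf in both media, since control levels were 9.15, 9.27 and 8.33, then 6.81, 6.01 and 6.43, then 8.14, 7.84 and 8.04.

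BT5 encodes a protein with BTB and TAZ domains. Its mannitol levels were 8.04, 9.54 and 9.13 in proliferating, 6.07, 5.97 and 6.24 in expanding and 8.57, 7.38 and 7.64 in mature leaf, with no overlap between expanding leaf and either other stage. It fell by 2.82 ± 0.30 (adjusted p 1.86e-08) and rose by 1.77 ± 0.30 (4e-05). In control leaves it had 9.05, 9.42 and 8.82, then 7.90, 7.14 and 7.60, then 9.51, 9.44 and 9.65.

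Among the genes of protein turnover, XBAT31 encodes a RING ubiquitin ligase with ankyrin repeats. It had 8.82, 8.53 and 8.71 in proliferating, 6.94, 6.65 and 6.63 in expanding and 7.75, 8.05 and 8.06 in mature leaf on mannitol. It fell by 1.95 ± 0.19 (adjusted p 5.62e-09) and rose by 1.22 ± 0.19 (1.78e-05). Control levels were 8.35, 8.20 and 8.38, then 4.87, 5.91 and 5.68, then 6.96, 7.53 and 6.98, so the proliferating arrays were the highest leaf arrays in both media.

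RMA1, a RING ubiquitin ligase anchored in the endoplasmic reticulum membrane, had 6.51, 6.48 and 6.73, then 5.12, 5.18 and 5.13, then 5.52, 5.78 and 5.84 on mannitol. It fell by 1.43 ± 0.12 (adjusted p 3.87e-10) and rose by 0.57 ± 0.12 (0.00046). Fes1A, a partner of Hsp70 chaperones, had 7.95, 7.88 and 7.87, then 6.89, 6.80 and 6.72, then 7.49, 6.67 and 7.12 on mannitol. It fell by 1.0996 ± 0.24 (0.000357), and its mature and expanding arrays overlapped. In control leaves RMA1 had 4.84, 5.03 and 5.06 in expanding and 6.13, 6.20 and 6.53 in mature leaf. Fes1A had 7.12, 6.14 and 6.82 in expanding and 8.82, 7.55 and 8.55 in mature control leaf, without overlap.

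MKK9, a MAP kinase kinase, fell by 1.74 ± 0.18 (adjusted p 1.49e-08) into the expanding leaf on mannitol and rose by 1.06 ± 0.18 (5.31e-05) after it. Its levels were 6.78, 7.47 and 7.23, then 5.78, 5.06 and 5.42, then 6.30, 6.55 and 6.57. NPC3, a non-specific phospholipase C, had 5.09, 5.80 and 5.10, then 4.40, 4.42 and 4.39, then 6.25, 5.91 and 5.99. It fell by 0.92 ± 0.19 (0.000146) and rose by 1.64 ± 0.19 (2e-07), and its mature arrays were the highest.

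TI1, a trypsin inhibitor, was the least even of the loci. On mannitol it had 9.09, 8.33 and 8.96 in proliferating, 7.78, 6.37 and 7.55 in expanding and 7.83, 4.57 and 7.25 in mature leaf. Control levels were 8.41, 7.76 and 8.07, then 3.91, 4.56 and 3.73, then 7.63, 3.76 and 6.36. The second mature array was the lowest in both media, and the mature control arrays overlapped the expanding ones. In expanding control leaf 2 of the 3 TI1 arrays lay below the lower quartile of all values. The mannitol differences were -1.56 ± 0.70 (adjusted p 0.0552) and -0.68 ± 0.70 (0.487), and the first passed without the first expanding mannitol array (0.0493) and in 4 other fits.

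Of the 5 loci known by code only, AT2G28400, AT1G23710 and AT1G32690 fell and then rose under mannitol. AT2G28400 fell by 1.83 ± 0.27 (adjusted p 2.17e-06) and rose by 1.19 ± 0.27 (0.000795). AT1G23710 fell by 1.89 ± 0.17 (1.5e-09) and rose by 0.85 ± 0.17 (0.000322). AT1G32690 fell by 1.07 ± 0.12 (6.69e-08) and rose by 0.41 ± 0.12 (0.00985), and that rise no longer passed without the first expanding mannitol array (0.0808) or the third mature mannitol array (0.0542). AT1G15010 fell by 1.66 ± 0.23 (8.44e-07). Its later difference of 0.53 ± 0.23 passed in 4 of 12 alternative fits, among them that without the first expanding mannitol array (0.0169). In expanding leaf its mean was 4.23 on mannitol and 4.22 on control medium, each with 1 array below the lower quartile of 4.04.

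AT4G23680 kept no dip on mannitol. Its leaf levels were 7.30, 6.69 and 6.99, then 7.26, 6.66 and 7.17, then 7.66, 7.15 and 7.50 on mannitol, and 6.05, 6.22 and 6.37, then 4.96, 4.37 and 5.39, then 6.15, 7.35 and 6.22 on control medium. The mannitol differences were 0.04 ± 0.29 (adjusted p 0.918) and 0.41 ± 0.29 (0.294). The 3 mannitol stages overlapped one another, whereas the expanding control arrays lay below all other leaf arrays of this locus.

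When the rule was applied to the mannitol arrays in place of the control arrays, 15 loci met it (0.0722% of all loci). Of these 6 were among the 18, namely SIP2, BT5, RPK1, A/N-InvC, HAI1 and XBAT31, which is 33.3% of the control list and 40.0% of the mannitol list. Leaving out a single control array changed the list to between 18 and 24 loci, of which 15 to 18 were shared with it.

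Mannitol minus control within a leaf stage uses the control arrays that chose the loci, so the following differences are a description with no test. The rule selects loci that read low on the expanding control arrays and high on the proliferating and mature ones. The choice itself therefore leans towards mannitol above control in expanding leaf and below control in proliferating and mature leaf. In expanding leaf mannitol was above control for 15 loci and below for 3 (median 0.32, all loci -0.02), in proliferating leaf for 12 and 6 (median 0.17, all loci -0.03), and in mature leaf for 10 and 8 (median 0.03, all loci -0.04).

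The 3 genes of abscisic acid signalling had higher levels on mannitol in expanding leaf, where mannitol and control arrays did not overlap. The difference was 1.73 ± 0.19 for AFP1, 1.18 ± 0.23 for HAI1 and 0.86 ± 0.16 for RPK1. In mature leaf it was 0.34 ± 0.19 for AFP1, 0.75 ± 0.23 for HAI1 and 0.04 ± 0.16 for RPK1. TI1 had the largest difference in expanding leaf, 3.17 ± 0.70, followed by AT4G23680 with 2.12 ± 0.29, and XBAT31 had 1.25 ± 0.19. XBAT31 was also higher in mature leaf, by 0.80 ± 0.19, without overlap.

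SIP2, ERD5 and BT5 went the other way: their mannitol mean was below control at each of the 3 leaf stages. In expanding leaf the difference was -0.80 ± 0.17 for SIP2, -0.65 ± 0.20 for ERD5 and -1.46 ± 0.30 for BT5. In mature leaf it was -0.28 ± 0.17 for SIP2, -1.09 ± 0.20 for ERD5 and -1.67 ± 0.30 for BT5. Mannitol and control arrays did not overlap in any of these 6 differences. In 9 of the other loci the mannitol mean was above control at each leaf stage.

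Mature leaf, where the rule selects high control readings, held further loci below control. Fes1A differed by -1.21 ± 0.24, AT1G15010 by -0.74 ± 0.23, RMA1 by -0.57 ± 0.12, AT1G32690 by -0.51 ± 0.12 and AT1G23710 by -0.33 ± 0.17. In each of these 5 the mannitol arrays lay wholly below the control arrays; over the 18 loci this held for 8 in mature leaf (14.2% of all loci) and for 3 in expanding leaf (10.7%), while mannitol lay wholly above control for 2 in mature leaf (10.4%) and 8 in expanding leaf (9.3%).

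**Figure D3:**
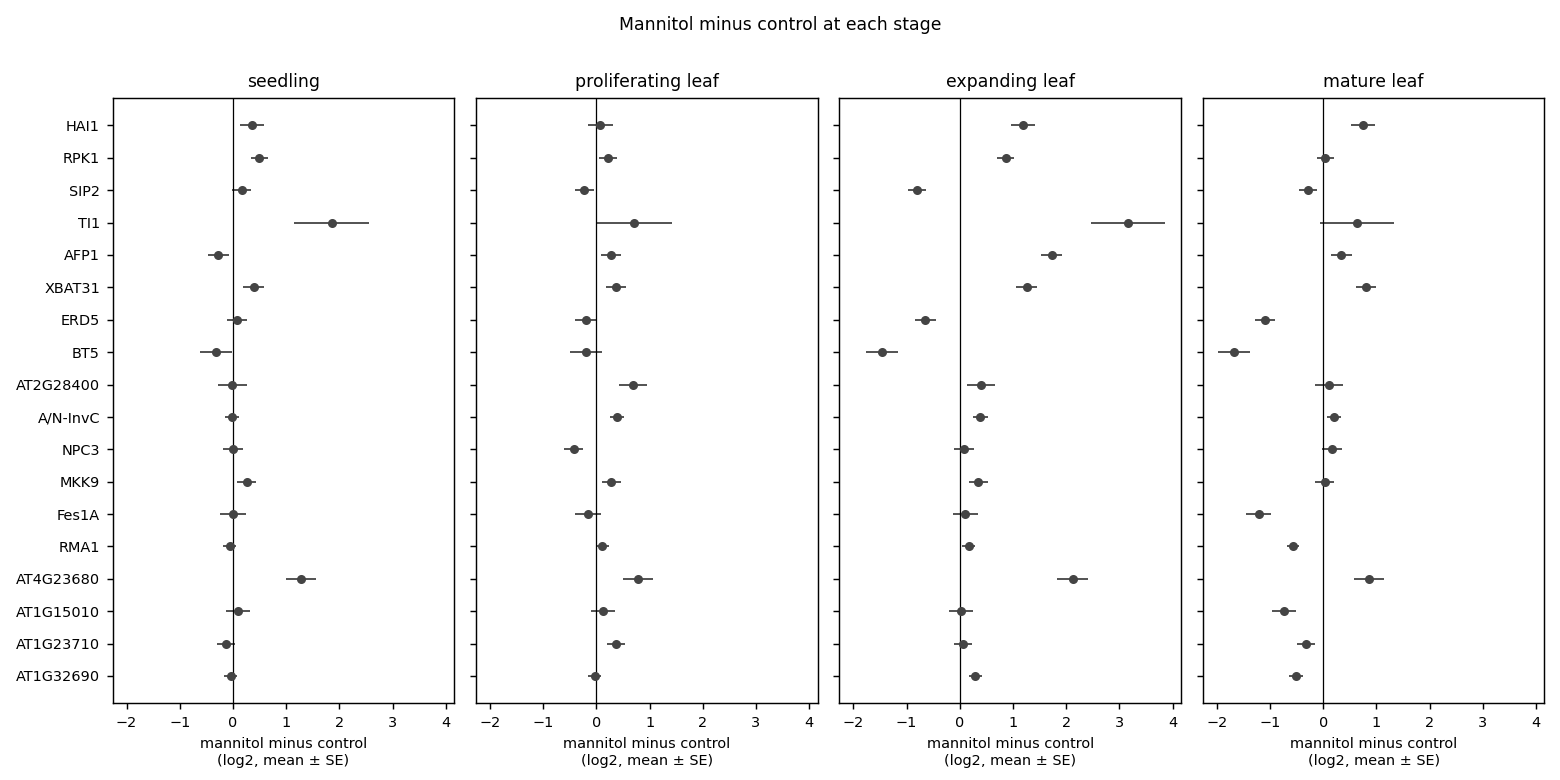
Mannitol minus control (log2, mean with the SE from the fit, n = 3 arrays a group) for each locus (rows) at each stage (panels). The spread is widest in expanding leaf, from -1.46 for BT5 to 3.17 for TI1; the 3 leaf panels share control arrays with the rule, the seedling panel does not.

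The loci were also chosen anew from 2 control arrays per stage, and mannitol was set against the control array that had been left out. This was done for each of the 3 replicate numbers and gave 25, 17 and 28 loci, of which 15, 13 and 18 were among the 18. The median difference in expanding leaf was then 0.20, 0.34 and 0.17, against -0.02, -0.03 and 0.02 for all loci. Mannitol was above the left-out array for 15 and below for 10 loci in the first round (45.5% of all loci above), for 15 and 2 in the second (44.6%) and for 17 and 11 in the third (53.7%), so in the first round and in the third the split was less uneven than over all control arrays. The 3 rounds share the same mannitol arrays. Single loci are given only from among the 18, which had been chosen with all control arrays. Their values show the spread over single control arrays and are not free of that choice. For AFP1 the 3 values ran from 1.45 to 2.08, for HAI1 from 1.02 to 1.44, for RPK1 from 0.78 to 0.998 and for XBAT31 from 0.83 to 1.87. SIP2 ran from -1.15 to -0.37 and ERD5 from -1.04 to -0.25. TI1 was chosen in 2 of the 3 rounds with 2.67 and 3.504, AT4G23680 in 2 with 1.64 and 2.07, and BT5 in 2 with -1.81 and -1.51. NPC3 (-0.20 and 0.14), AT1G15010 (-0.15 to 0.19) and AT1G23710 (-0.06 and 0.05) lay on both sides of 0. Fes1A was below 0 in its 2 rounds (-0.32 and -0.02), against 0.11 over all control arrays.

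Seedlings gave a test of mannitol on arrays with no part in the rule. Only AT4G23680 rose, by 1.28 ± 0.29 (adjusted p 0.0195, 2.43-fold), which is 1 of the 18 loci where 1.17% of all loci rose, and 0 of the 18 fell where 0.274% of all loci did (3 of the 18 had an unadjusted p under 0.05). Its levels were 9.32, 9.08 and 9.60 in mannitol seedlings and 8.52, 8.06 and 7.57 in control seedlings, without overlap. The call did not hold without the first mannitol array (0.0547), the third mannitol array (0.136), the second control array (0.0703) or the third control array (0.152).

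TI1 had 6.81, 7.04 and 7.25 in mannitol seedlings and 5.27, 5.01 and 5.25 in control seedlings, a difference of 1.86 ± 0.70 (adjusted p 0.335). The seedling arrays did not overlap, and the SE of the fit rests on all 24 arrays. Same-numbered seedling arrays deviated together, and with the replicate number as a block TI1 rose (adjusted p 0.00128) and the count became 2 of 18, where 1.75% of all loci rose. Fitted on the 6 seedling arrays alone, TI1 rose as well (6.81e-05).

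For the abscisic acid genes the seedling differences were 0.50 ± 0.16 for RPK1 (adjusted p 0.197), 0.36 ± 0.23 for HAI1 (0.814) and -0.28 ± 0.19 for AFP1 (0.867). RPK1 had 5.62, 5.73 and 5.56 in mannitol and 5.27, 4.91 and 5.24 in control seedlings, and HAI1 4.74, 5.05 and 5.09 in mannitol and 4.70, 4.49 and 4.62 in control seedlings. The arrays did not overlap for these 2 genes, nor for TI1, XBAT31 and AT4G23680, so that mannitol lay wholly above control for 5 of the 18 loci (7.23% of all loci) and wholly below for 0 (9.05%). SIP2 differed by 0.16 ± 0.17, ERD5 by 0.08 ± 0.20 and BT5 by -0.31 ± 0.30, with overlapping arrays. Whether the seedling differences differ from those in leaves was not tested.

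Seedlings and expanding leaf were compared on mannitol, where neither group was used by the rule. Seedlings were higher for 7 of the 18 loci, where 14% of all loci were, and lower for 2, where 18.17% were. The 2 lower genes belong to abscisic acid signalling: AFP1 had 4.14, 4.21 and 4.38 in seedlings (difference -2.20 ± 0.19, adjusted p 7.77e-09), and HAI1 differed by -1.32 ± 0.23 (9.87e-05). RPK1 differed by -0.03 ± 0.16 (0.908).

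XBAT31 was higher in seedlings by 3.16 ± 0.19 (adjusted p 2.77e-11, 8.95-fold), with 10.04, 9.79 and 9.87 in mannitol seedlings, and RMA1 by 2.61 ± 0.12 (2.72e-13), with 7.92, 7.79 and 7.54. AT4G23680 was higher by 2.30 ± 0.29 (1.62e-06), A/N-InvC by 1.65 ± 0.14 (2.85e-09), SIP2 by 1.46 ± 0.17 (7.98e-07) and NPC3 by 1.06 ± 0.19 (0.000117). Both ubiquitin ligases are thus among the loci far above the expanding leaf in seedlings, and their lowest seedling arrays on mannitol were above all leaf arrays on mannitol. MKK9 passed narrowly (0.48 ± 0.18, 0.0481) and did not pass without the first seedling array (0.134), the third seedling array (0.151), the second expanding array (0.271) or the third expanding array (0.0919). The call was also lost with the replicate number as a block (0.0588), after median centring (0.0618) and on the compared groups alone (0.0608).

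In control plants XBAT31 had 9.67, 9.57 and 9.30 and RMA1 7.93, 7.84 and 7.67 in seedlings. The seedlings had the lowest of the 4 control means for 5 of the 18 loci and the expanding leaf for 13. By the rule no other leaf stage could be lowest in control plants. On mannitol the seedlings were lowest for 8 loci, the expanding leaf for 8, the proliferating leaf for 1 and the mature leaf for 1. No share over all loci was taken for these counts, and nothing is read from them. ERD5 and BT5 were among the genes with low seedling levels on both media: ERD5 had 5.44, 5.74 and 5.60 in mannitol and 5.47, 5.38 and 5.70 in control seedlings, and BT5 had 5.79, 5.49 and 5.02 in mannitol and 5.72, 5.69 and 5.82 in control seedlings.

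**Figure D4:**
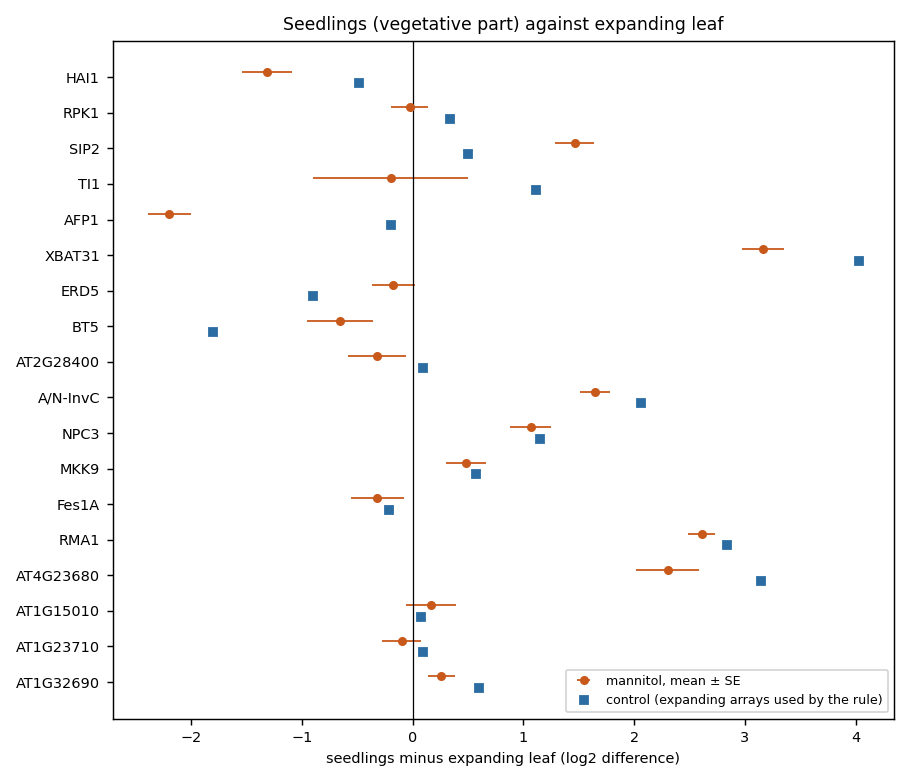
Seedlings minus expanding leaf (log2) for each locus (rows). Circles are mannitol plants with the SE from the fit, and squares control plants, whose expanding arrays the rule used. On mannitol XBAT31, RMA1 and AT4G23680 lie furthest to the right, at 2.30 to 3.16, and AFP1 furthest to the left, at -2.20.

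The related pathways were followed through 23 gene lists, of which 4 held any of the 18 loci. On the abscisic acid and dehydration list, which holds HAI1, 18 of 27 measured genes rose from proliferating to expanding leaf on mannitol and 2 fell (median 0.88; 33.2% and 31.8% of all loci). The genes that fell were HAI1 and ERD7, an early dehydration gene, with -0.90 (adjusted p 0.000997). From expanding to mature leaf 24 of the 27 rose and 0 fell (median 1.37; 18.6% and 21.5% of all loci). Other phosphatases of the group rose at the first step, HAB1 by 0.88 (4.16e-06), ABI2 by 1.39 (3.11e-08) and HAI3 by 0.39 (0.0097), while ABI1 differed by 0.19 (0.173) and HAI2 by 0.38 (0.124). HAI3 and HAI2 were near the low end of the arrays, where small differences are hard to read. Their means were 3.84 and 3.88 in proliferating leaf, below the lower quartile of 4.04, and 4.23 and 4.27 in expanding leaf. In seedlings 1 gene of the list rose on mannitol, the dehydration gene RD22, by 0.87 (8.48e-05), and 0 fell, where 1.17% and 0.274% of all loci did.

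On the list of sugar starvation and dark-induced genes, which holds SIP2, 6 of 26 rose and 11 fell from proliferating to expanding leaf on mannitol (median -0.18), where 33.2% and 31.8% of all loci did. From expanding to mature leaf 17 rose and 2 fell (median 0.805; 18.6% and 21.5% of all loci). Both a fall and a later rise were found for 6 of the 26, against 3.48% of all loci: SIP2, DIN11, DYL1, IVD (an enzyme of leucine breakdown), TPS9 and BXL1, a beta-xylosidase. DIN11 had a mean of 3.32 in expanding leaf, below the lower quartile of 4.04, and its rise passed narrowly (adjusted p 0.0399). In seedlings 0 rose on mannitol and BXL1 fell, by 0.61 (adjusted p 0.033), beside 1.17% and 0.274% of all loci.

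SIP2 is also on the raffinose and trehalose list of 15 genes. At the first step 7 of them rose and 2 fell (median 0.26; 33.2% and 31.8% of all loci), and at the second 7 rose and 1 fell (median 0.245; 18.6% and 21.5%). SIP2 was the only gene of the list with both changes. In seedlings 0 of these 15 rose and 1 fell (1.17% and 0.274% of all loci). On the nitrogen and amino acid list, which holds ERD5, 14 of 22 rose and 4 fell at the first step (median 0.74; 33.2% and 31.8% of all loci). At the second step 6 rose and 6 fell (median -0.15), close to the 18.6% and 21.5% of all loci, and in seedlings 4 rose and 0 fell (1.17% and 0.274% of all loci). ERD5 was the only gene of this list with both changes.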

How the data were processed

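Total RNA of 24 samples was hybridised to ATH1 arrays, 3 for each of 8 groups. The authors deposited log2 expression levels, 1 per locus and array, made with RMA per the submitters' processing notes; its version and probe grouping were not given in the sources used here. The scale was read from the values. No normalization was added, and 0 columns were left unmapped. With arrays, their number limits the precision.

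All 20777 loci were fitted with limma 3.58.1 in R 4.3.3 (8 group means, lmFit and eBayes, prior SD 0.137), two-sided, with Benjamini-Hochberg adjustment over all loci and calls at an adjusted p under 0.05. The fit was tested on simulated data. SE values come from the fit. Mannitol minus control within leaf stages was given no test. A gene said to be called higher or lower, to have risen or to have fallen passed this test. Non-overlap means that all 3 arrays of a group lie beyond all 3 of the other.

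The 18 loci and all gene lists were chosen with earlier results of these data known, so neither is independent support. The text gives all 18 loci, which includes those named by the rule set for the text: the deepest control dips, the extremes under mannitol and in seedlings, list members, and the loci beside the threshold. Of 704 list memberships 655 were measured; the symbol search put 6 list names on a wrong gene or on several, which were corrected, and 8 names had no locus. Gene names come from RefSeq's TAIR10.1 table.

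Whether replicate numbers pair arrays was checked by correlating deviations from the group means. Same-numbered control and mannitol seedlings correlated (0.429, 0.323 and 0.177), so the blocked fit is given beside seedling results it changes. Across the mannitol stages the values ran from -0.0475 to 0.151. For mature and expanding leaf each array correlated best with its own number (0.0932, 0.151 and 0.0256). Mannitol and control arrays of the same leaf stage were not checked in this way. Alternatives were 2 other scalings, the replicate block, a fit on the compared groups alone, a filter on low loci, a variance trend, other rule thresholds and leaving out each array.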

Additional observations from a re-analysis of the deposited data

Results flagged for a closer look

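RMA1, the membrane-anchored ubiquitin ligase, was singled out because its mannitol and control arrays moved apart in opposite directions at neighbouring stages. In expanding leaf all 3 mannitol arrays (5.12, 5.18 and 5.13) were above all 3 control arrays (4.84, 5.03 and 5.06), where 9.3% of all loci were. The difference was 0.164 ± 0.12, small beside its SE. In mature leaf all 3 mannitol arrays (5.52, 5.78 and 5.84) were below all 3 control arrays (6.13, 6.20 and 6.53), where 14.2% of all loci were. That difference was -0.57 ± 0.12. The difference between the stages was not tested, because both values share control arrays with the rule that chose the gene. That rule asks for low expanding and high mature control levels, so the choice itself leans towards such a pattern.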

How the results depend on the processing

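The 39 results followed for single loci are those that passed in the main fit. For these, 455 recomputed values still passed in the same direction, 13 no longer passed and 0 changed sign. Results that did not pass in the main fit are outside this tally. Some of them passed in an alternative, for TI1, AFP1, AT1G15010, BT5, Fes1A and AT1G32690. A rule threshold of 1.0 gave 37 loci, and 1.5 gave 8. Of the 37, 33 fell into and 30 rose after the expanding leaf on mannitol, 2 rose in seedlings and 14 were higher in seedlings than in expanding leaf. Of the 8, these counts were 6, 7, 0 and 2. Over all loci the shares were 31.8%, 18.6%, 1.17% and 14%. In seedlings 2 loci rose on mannitol with the replicate block (1.75% of all loci) and 2 when only the seedling arrays were fitted (1.45%). Without single arrays 0 to 1 rose, where 0.727% to 0.982% of all loci did. Only the compared groups gave 4 loci lower in seedlings than in expanding leaf, where 17.2% of all loci were. This added BT5 (adjusted p 0.0181) and Fes1A (0.0207), and the cause of these changes was not tested. Between the mannitol leaf stages same-numbered arrays correlated weakly (-0.0475 to 0.151), though for mature and expanding leaf each correlated best with its own number. Pairing of mannitol with control arrays within a leaf stage was not checked. With the replicate block 16 loci fell into and 14 rose after the expanding leaf on mannitol. In that fit 6 were higher and 2 lower in seedlings than in expanding leaf. AT1G15010 also passed from expanding to mature leaf after centring (0.0447) or quantile normalization (0.0222). The planned description of gene classes and the promoter motif search were not run, since the reference used here gives no descriptions or sequences. With 3 arrays a group, small differences cannot be resolved, and a level near the low end of the arrays, such as TI1 in expanding control leaf, limits the size of difference that can be read.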

Other observations

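The rule applied to the mannitol leaf arrays found 9 loci that did not meet it in control leaves. As a description only, the smaller of the 2 differences was 1.40 on mannitol and 0.25 in control leaves for XTH24, a gene of the xyloglucan-modifying cell wall enzymes. It was 1.305 on mannitol and 0.58 in control leaves for BGLU18, a beta-glucosidase, and 1.21 on mannitol and 0.41 in control leaves for DYL1. HSPRO2 had 1.36 on mannitol and 1.17 in control leaves, just short of the threshold. ATMG01370, a locus of the mitochondrial genome, had 2.39 on mannitol and 0.73 in control leaves, and AT4G27450 had 1.36 on mannitol and 0.18 in control leaves. These loci were chosen on the mannitol arrays, and a difference between the media was not tested.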
